A study of Mus musculus with 19 samples.

Results

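This section follows 30 genes that mark neural stem cells and astrocytes through 12 RNA-seq libraries of cultured mouse neural progenitor cells. The genes were taken by name from 2 lists, 19 stem cell and radial glia genes and 11 astrocyte genes, out of 26621 genes in the count table. All 30 had a row in the table. The cells came from the cerebral cortex of embryonic day 17.5 embryos and were kept on Matrigel in medium with bFGF and EGF, each at 20 ng/mL. They were wild type (WT, 6 libraries) or conditional knockout for Mettl8 (cKO, 6 libraries), a gene for a methyltransferase that makes 3-methylcytidine (m3C) in mitochondrial tRNA. All groups shared the same medium and stage, and the driver of the Cre recombinase is not given in the sources used here. A second assay on the same kinds of cells, hydrazine-aniline cleavage sequencing (HAC-seq, 4 WT and 3 cKO libraries), reads modified cytidines from the places where the RNA chain breaks.

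Radial glia are the stem cells of the embryonic cortex. They hold the transcription factors Sox2 and Pax6 and the intermediate filament proteins nestin and vimentin, and late in gestation the same lineage turns from making neurons to making astrocytes. Several genes of the 2 lists, such as Slc1a3 and Sox9, are active in both radial glia and astrocytes, and growth factors such as EGF hold cultured progenitors in a dividing state. Bulk RNA cannot tell fewer cells of a type from less RNA per cell, and this holds for every level below.

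The names of the libraries give 2 library sets, each with both genotypes. Set 1 held WT replicates 1 to 3 with cKO replicates 1 and 2, and set 2 held WT replicates 4 to 6 with cKO replicates 3 to 6. What set the library sets apart is not given in the sources used here, so that culture, passage, date and library preparation cannot be told apart. Total counts ran from 11830839 (cKO replicate 4) to 18863781 (WT replicate 5), and the first principal component of all tested genes, with 48.5% of the variance, separated the sets. Reads of the whole Mettl8 gene ran from 35.9 to 58.6 CPM (read counts scaled to library size) in WT and from 59.3 to 80.9 CPM in cKO libraries. Taken alone this goes against the knockout label, but a count over the gene cannot show whether the deleted part is missing, and so it checks nothing. By Y-linked and Xist reads 2 libraries (cKO replicates 1 and 5) read as male and 10 as female. WT replicate 3, read as female with Xist at 176 CPM, also had 6.40 CPM of Y-linked reads. The other libraries read as female had at most 0.332 CPM of them (cKO replicate 4). Nothing in the labels says that replicates were separate cultures or embryos. By these reads the male and female cKO libraries of each set cannot come from the same embryo. Whether libraries of the same sex did is not known. The p-values then cover only the spread among these libraries, which may in part be technical.

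The largest differences in both lists lay between the library sets, and the 5 promoters below are examples from genes that differed so: Gja1, Cst3 and S100b among the astrocyte genes lower in set 2, and Vim and Nes among the stem cell genes higher in it. Aqp4 and Fgfbp3, whose fold changes were larger than those of Cst3 and Nes, are not shown. Each line gives 250 bases that end at the base before the RefSeq start (GRCm38.p6), 5′ to 3′ in the direction of transcription. Capitals mark matches, on either strand, to 6 short motifs.
Gja1, chr10:56377050-56377299, plus strand: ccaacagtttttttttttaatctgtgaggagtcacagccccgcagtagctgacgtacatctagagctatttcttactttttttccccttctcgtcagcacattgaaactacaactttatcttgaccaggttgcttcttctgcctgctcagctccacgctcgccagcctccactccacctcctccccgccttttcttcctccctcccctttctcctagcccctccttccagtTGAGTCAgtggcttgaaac
Cst3, chr2:148875513-148875762, minus strand: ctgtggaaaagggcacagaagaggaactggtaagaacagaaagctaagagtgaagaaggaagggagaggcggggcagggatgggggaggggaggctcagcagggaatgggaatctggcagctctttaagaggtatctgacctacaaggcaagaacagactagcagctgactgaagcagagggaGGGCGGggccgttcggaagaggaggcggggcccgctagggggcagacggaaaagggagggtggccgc
S100b, chr10:76253586-76253835, plus strand: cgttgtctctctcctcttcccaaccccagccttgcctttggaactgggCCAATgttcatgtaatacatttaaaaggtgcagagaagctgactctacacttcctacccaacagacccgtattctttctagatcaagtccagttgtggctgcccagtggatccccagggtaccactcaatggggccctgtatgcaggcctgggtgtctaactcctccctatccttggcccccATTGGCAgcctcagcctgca
Vim, chr2:13574061-13574310, plus strand: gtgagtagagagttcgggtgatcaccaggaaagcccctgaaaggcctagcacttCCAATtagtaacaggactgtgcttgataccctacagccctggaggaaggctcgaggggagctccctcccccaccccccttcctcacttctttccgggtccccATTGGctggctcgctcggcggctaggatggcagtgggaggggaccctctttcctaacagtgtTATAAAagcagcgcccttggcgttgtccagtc
Nes, chr3:87970843-87971092, plus strand: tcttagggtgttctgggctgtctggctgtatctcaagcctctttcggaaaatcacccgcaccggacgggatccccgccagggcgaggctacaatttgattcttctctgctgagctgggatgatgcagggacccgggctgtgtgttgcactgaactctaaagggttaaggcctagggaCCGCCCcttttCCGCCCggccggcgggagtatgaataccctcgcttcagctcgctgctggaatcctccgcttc

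The TATA box was searched as TATAAA and the CCAAT box as CCAAT. The GC box was searched as GGGCGG, an NFI site as TTGGCA, the AP-1 site as TGANTCA and the STAT site as TTCNNNGAA. They were searched in windows of 300 bases, the 250 shown and 50 more from the start on. Vim held a TATA box 32 to 27 bases before the start and CCAAT on each strand, and Nes held 2 GC boxes on the other strand. Gja1 held 1 AP-1 match, 19 to 13 bases before the start. Cst3 held a GC box 67 to 62 bases before it and another 25 to 30 bases after it, beyond the bases shown. In S100b a CCAAT match on the other strand, 20 to 16 bases before the start, overlapped the NFI match there. Of the 30 genes, 24 had an entry in the table, with 30 promoters. The TATA box was in 4 of these 30 (13.6% of all 32851 promoters), the CCAAT box in 15 (37.4%) and the GC box in 14 (35.7%). The NFI site was in 3 (14.1%), the AP-1 site in 3 (7.81%) and the STAT site in 2 (8.30%). A match is a stretch of letters, not a measured site, and none of the 6 motifs was in all 3 astrocyte promoters shown.

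Astrocyte genes were lower in library set 2 than in set 1. Of the 11 astrocyte genes, 10 fell, 0 rose, and Gfap did not pass the test (edgeR quasi-likelihood test with genotype in the fit, Benjamini-Hochberg adjusted p under 0.05 over 13105 genes tested). The background was wide: 43.8% of all tested genes were called between the sets, 22.2% lower and 21.5% higher in set 2. The median log2 fold change of the 11 genes was -0.74, against 0.00125 for all tested genes. The 2 sets did not overlap for 9 of the 11 (all but Gfap and Glul), where 11.9% of all tested genes lay wholly lower in set 2. Of these, 5 genes, Gja1, S100b, Cst3, Aqp4 and Apoe, were more than 2 times lower, as were 3.06% of all tested genes.

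Gja1, which encodes connexin 43, the main gap junction protein of astrocytes, differed the most. Its level in set 1 was 872, 1186 and 749 CPM in WT replicates 1 to 3 and 720 and 1112 CPM in cKO replicates 1 and 2. In the 7 libraries of set 2 it ran from 148 through a median of 208 to 291 CPM. The lowest library of set 1 thus lay above the highest of set 2. The means were 928 ± 211 (SD, n = 5) and 220 ± 49.6 CPM (SD, n = 7), a fall of 4.15 times (log2 fold change -2.05, SE 0.142, edgeR adjusted p = 1.54e-09). 

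S100b, a calcium-binding protein secreted by astrocytes, stood at 24.3, 38.2 and 40.4 CPM in WT replicates 1 to 3 and at 28.1 and 29.4 CPM in cKO replicates 1 and 2. In set 2 it ran from 4.40 through 8.11 to 16.9 CPM. It was 3.08 times lower there, again with no overlap (log2 fold change -1.62, SE 0.200, edgeR adjusted p = 2.50e-06). Aqp4, the water channel of astrocyte endfeet, measured 549, 653 and 502 CPM in WT and 444 and 738 CPM in cKO libraries of set 1. In set 2 Aqp4 ran from 105 through 218 to 283 CPM, 2.61 times lower (log2 fold change -1.38, SE 0.167, edgeR adjusted p = 2.00e-06). Every library of set 1 lay above every library of set 2 for both genes.

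Cst3, the secreted protease inhibitor cystatin C, gave the smallest p of the list. Its level was 226, 284 and 276 CPM in WT and 268 and 270 CPM in cKO libraries of set 1, against 92.9 through 103 to 124 CPM in set 2. The difference of 2.51 times (log2 fold change -1.33, SE 0.0739, edgeR adjusted p = 8.13e-11) was large beside the spread within either set. Apoe, the lipid carrier, was 2.29 times lower (log2 fold change -1.19, SE 0.166), with 147 ± 23.6 CPM (SD, n = 5) in set 1 and 62.6 ± 20.1 CPM (SD, n = 7) in set 2.

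The other astrocyte genes fell by less. Slc1a2, the glutamate transporter GLT-1, had a log2 fold change of -0.74, and Sparcl1, a secreted protein that promotes synapse formation, of -0.72. Clu, the chaperone clusterin, was at -0.59 and Aldh1l1, a folate enzyme used as a general astrocyte marker, at -0.37. Glul, the glutamine synthetase that clears glutamate, was at -0.25 (SE 0.0906, edgeR adjusted p = 0.0336). The Glul call was lost in 9 of 22 alternative settings, among them without WT replicate 2, WT replicate 4, cKO replicate 1 or cKO replicate 5 (edgeR adjusted p up to 0.147).

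Gfap, the intermediate filament protein of mature and reactive astrocytes, was the exception. It measured 111, 108 and 71.5 CPM in WT and 70.9 and 115 CPM in cKO libraries of set 1. In set 2 it ran from 23.2 (cKO replicate 4) through 85.4 to 142 CPM (WT replicate 6), so that set 2 held both the lowest and the highest library. Its log2 fold change was -0.22 (SE 0.258, edgeR adjusted p = 0.519), with -0.40 without WT replicate 6, -0.013 without cKO replicate 2 and -0.083 without cKO replicate 4. Gfap was called only where no filter on low counts was used (edgeR adjusted p = 0.0110).

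**Figure D1:**
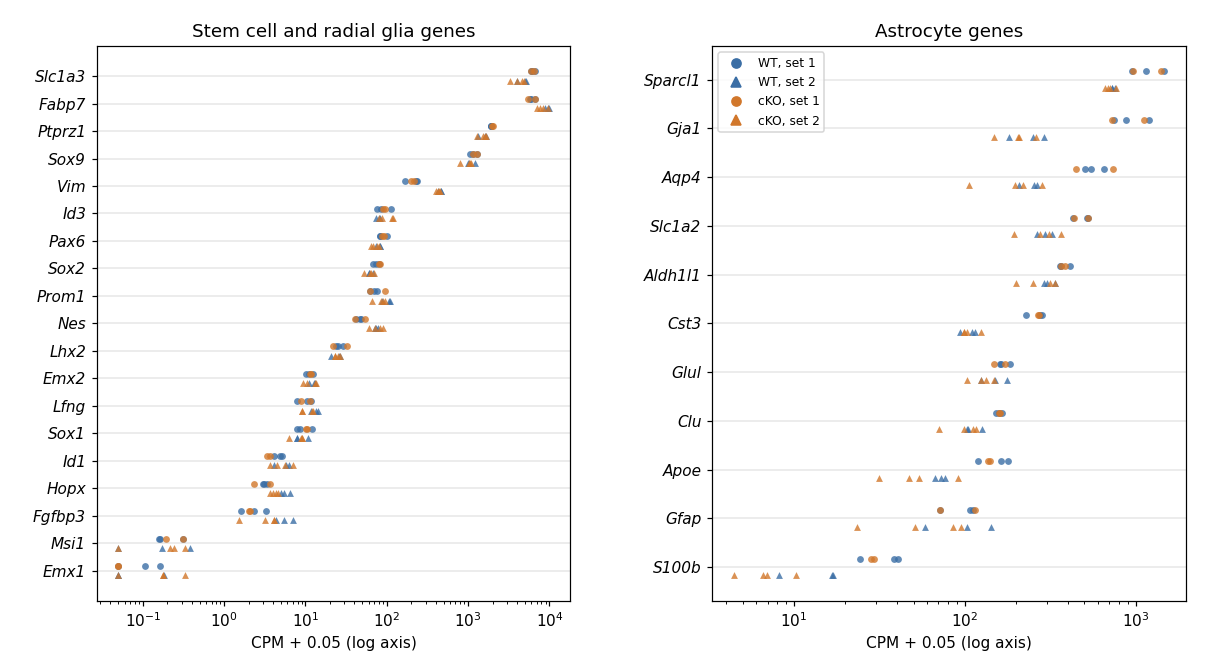
Level of each gene in each of the 12 libraries, as CPM + 0.05 on a log axis, with stem cell and radial glia genes on the left and astrocyte genes on the right. Colours give the genotype, circles library set 1 and triangles set 2, 1 point per library. Gja1, S100b, Aqp4, Cst3 and Apoe show 2 separate clouds by set, in which WT and cKO points overlap. For S100b and Apoe most cKO points of set 2 lie below the WT points of that set.

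Stem cell and radial glia genes moved both ways between the sets. Of 19 genes 17 were tested, of which 6 rose, 5 fell and 6 did not pass, against 21.5% higher and 22.2% lower among all tested genes. The median log2 fold change of the 17 was 0.08. Vim and Fgfbp3 were more than 2 times higher, as were 4.71% of all tested genes. The sets did not overlap for 5 of them, 3 higher in set 2 (Nes, Vim and Fabp7) and 2 lower (Slc1a3 and Ptprz1), where 11.7% and 11.9% of all tested genes lay apart in these directions. Emx1, a transcription factor of the dorsal cortex, had 13 counts over all libraries and Msi1, an RNA-binding protein of stem cells, had 30, too few for the test. Emx1 was at 0 in 6 libraries and Msi1 in 2.

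The filament genes rose. Vim, which encodes vimentin, measured 236, 166 and 226 CPM in WT and 216 and 199 CPM in cKO libraries of set 1, and from 404 through 437 to 462 CPM in set 2. It was 2.12 times higher in set 2 (log2 fold change 1.08, SE 0.0735, edgeR adjusted p = 1.21e-09). Nes, which encodes nestin, measured 47.6, 41.8 and 46.4 CPM in WT and 54.2 and 40.4 CPM in cKO libraries of set 1, and from 60.0 through 73.6 to 89.5 CPM in set 2. Its log2 fold change was 0.69 (SE 0.0952, edgeR adjusted p = 8.80e-06). Neither gene overlapped between the sets.

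Fabp7, the brain fatty acid-binding protein of radial glia, had 6113 ± 510 CPM (SD, n = 5) in set 1 and 8737 ± 1063 CPM (SD, n = 7) in set 2, a log2 fold change of 0.53 (SE 0.0683). Hopx, a homeodomain protein of outer radial glia, and Fgfbp3, a carrier protein for fibroblast growth factors, were low. Hopx measured 2.98, 3.02 and 3.30 CPM in WT and 3.63 and 2.30 CPM in cKO libraries of set 1, and from 3.62 through 4.58 to 6.41 CPM in set 2 (log2 fold change 0.68, SE 0.180, edgeR adjusted p = 0.00506). Fgfbp3 measured 1.55, 2.28 and 3.23 CPM in WT and 1.95 and 2.01 CPM in cKO libraries of set 1. In set 2 it ran from 1.49 through 4.10 to 6.95 CPM (log2 fold change 1.01, SE 0.263, edgeR adjusted p = 0.00419). Within cKO libraries alone neither passed (edgeR adjusted p = 0.289 for Hopx and 0.246 for Fgfbp3). Prom1, the surface protein CD133, had a log2 fold change of 0.32 (edgeR adjusted p = 0.0311), lost in 8 of 22 settings. These included leaving out WT replicate 1, 2, 3, 5 or 6 or cKO replicate 1 (edgeR adjusted p up to 0.107).

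Genes that fell included transcription factors. Sox2, which keeps neural stem cells undifferentiated, measured 73.8, 80.1 and 66.8 CPM in WT and 81.1 and 81.6 CPM in cKO libraries of set 1, and from 52.7 through 61.7 to 69.9 CPM in set 2. Its log2 fold change was -0.30 (SE 0.0754, edgeR adjusted p = 0.00308), lost within WT libraries alone (0.119). Pax6, which patterns the dorsal cortex, was at -0.24 (edgeR adjusted p = 0.0146), lost in 6 of 22 settings (edgeR adjusted p up to 0.266). These included leaving out WT replicate 2 or cKO replicate 1 and each genotype alone. Sox9, which drives the gliogenic switch, was at -0.20 (edgeR adjusted p = 0.0458) and lost its call in 15 of 22 settings. These included leaving out WT replicate 2, 3, 4 or 5 or cKO replicate 1, 2, 5 or 6 (up to 0.201).

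Slc1a3, the glutamate transporter GLAST of radial glia and astrocytes, had 6256 ± 340 CPM (SD, n = 5) in set 1 and 4407 ± 709 CPM (SD, n = 7) in set 2 (log2 fold change -0.49, SE 0.0837, edgeR adjusted p = 9.95e-05). Ptprz1, a receptor phosphatase of radial glia, was at -0.35 (SE 0.0627). The genes that did not pass were Sox1, Id1, Id3, Lfng, Emx2 and Lhx2, with log2 fold changes from -0.21 (Sox1) to 0.36 (Id1). Id1 and Id3 are inhibitors of differentiation that respond to BMP signals, Lfng modifies Notch receptors, and Emx2 and Lhx2 pattern the cortex.

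**Figure D2:**
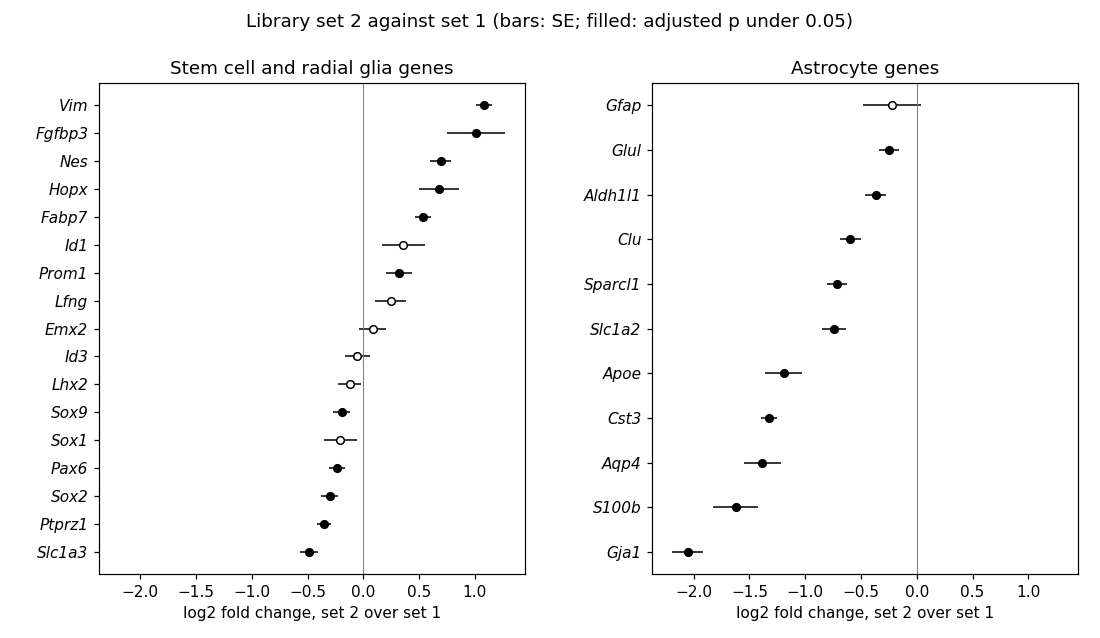
Log2 fold change of set 2 over set 1 for each tested gene (horizontal axis), with bars of 1 SE and filled points where the adjusted p was under 0.05. All 11 astrocyte genes lie left of 0, from Gja1 at -2.05 to Gfap at -0.22, while the stem cell and radial glia genes reach from Slc1a3 at -0.49 to Vim at 1.08.

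Other genes of the same kinds, which belong to neither list, were read beside the members. Of 28 further astrocyte genes 19 fell and 2 rose from set 1 to set 2, with a median log2 fold change of -0.56. The smallest p-values belonged to Slc39a12, a zinc transporter (-2.83), Fgfr3, a growth factor receptor (-1.06), Pla2g7 (-1.02) and Gjb6, the gap junction protein connexin 30 (-4.42). Of 20 further stem cell genes 5 rose and 7 fell, with a median of 0.03. Counts of these further lists stand beside 21.5% higher and 22.2% lower among all tested genes. Tnc, a matrix protein of the stem cell niche (1.26), rose, whereas Hes5, a Notch target (-1.07), Mfge8 (-0.86) and the endothelin receptor gene Ednrb (-0.75) fell. Hes1, another Notch target, rose (1.08, edgeR adjusted p = 2.79e-06). Of 9 BMP response genes 5 could be tested, of which Bambi rose (1.81) and Id2 (-0.28) and Id4 (-1.90) fell. Bambi was near the floor, with means of 0.232 CPM in set 1 and 0.819 CPM in set 2 and 107 counts over all libraries.

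Markers of other cell types also differed between the sets, and their part in the members' differences was not tested. The counts of calls here stand beside 21.5% higher and 22.2% lower in set 2 among all tested genes. Neuronal genes summed to 215 to 257 CPM in set 1 and 410 to 543 CPM in set 2, and 7 of 8 tested rose, among them Stmn2 (log2 fold change 5.21). Genes of the oligodendrocyte lineage summed to 1036 to 1310 CPM in set 1 and 437 to 743 CPM in set 2, and 7 of 9 tested fell, among them Cnp (-1.18). Proliferation genes summed to 3440 to 3657 CPM in set 1 and 3618 to 4318 CPM in set 2, and 7 of 10 rose. Of 3 intermediate progenitor genes 2 fell, and the defining gene of the list, Eomes, had a mean of 0.223 CPM in set 1 and 0.163 CPM in set 2. Microglial genes summed to between 1.66 and 7.76 CPM in any library, with Tmem119, C1qa, C1qc and Trem2 at 0. Most of this sum was P2ry12 (means of 2.47 CPM in set 1 and 5.66 CPM in set 2). It was the only microglial gene tested, and it rose (log2 fold change 1.18, edgeR adjusted p = 0.000274). Genes of endothelium and mural cells summed to between 8.27 and 15.3 CPM, mostly Acta2 (means of 8.34 and 7.51 CPM), and 0 of 4 tested were called.

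With library set in the fit and genes of low count left out, 0 of 17 stem cell and radial glia genes and 0 of 11 astrocyte genes passed the test between cKO and WT (edgeR adjusted p from 0.803 to 0.998). Over all genes edgeR called 0 of 13105 (0.00%), DESeq2 called 2 and limma's voom called 1, none of them a member. With no filter on low counts edgeR called 3 members lower in cKO: S100b (adjusted p = 5.89e-05), Gfap (3.03e-05) and Apoe (0.0497). Over all 20312 genes kept there, it called 45 lower and 20 higher in cKO. The filter had not removed these 3 members, whose edgeR adjusted p with it was 0.803 (S100b), 0.857 (Gfap) and 0.857 (Apoe). Why the calls differed between the settings was not tested. With the filter, at an unadjusted p under 0.05, edgeR gave 6.14% of all genes, 3.28% lower and 2.86% higher in cKO. Fgfbp3 and S100b, both lower in cKO, were the members at that level. WT and cKO libraries overlapped for every member, whereas they lay apart for 0.130% of all tested genes.

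Among astrocyte genes 10 of 11 had a log2 fold change below 0, with a median of -0.14, where 50.4% of all genes lay below 0 with a median of -0.000996. Other lists leaned too: 22 of 28 further astrocyte genes (median -0.14) and 6 of 8 tested neuronal genes lay below 0. All 10 proliferation genes lay above 0. S100b ran from 8.11 through 20.6 to 40.4 CPM in WT and from 4.40 through 8.61 to 29.4 CPM in cKO libraries, with overlap in each library set. Its log2 fold change was -0.64 (SE 0.202, unadjusted p = 0.00504, edgeR adjusted p = 0.803). S100b had means of 34.3 CPM in WT and 28.7 CPM in cKO libraries of set 1, and of 13.9 and 7.04 CPM in those of set 2. Gfap ran from 58.6 through 105 to 142 CPM in WT and from 23.2 through 78.1 to 115 CPM in cKO libraries (log2 fold change -0.41, SE 0.256, unadjusted p = 0.125, edgeR adjusted p = 0.857). Leaving out 1 library gave Gfap values from -0.60 (without cKO replicate 2) to -0.21 (without WT replicate 6), with -0.24 without cKO replicate 4. Glul ran from 124 through 162 to 182 CPM in WT and from 103 through 140 to 172 CPM in cKO libraries (log2 fold change -0.17, SE 0.0898, unadjusted p = 0.0711, edgeR adjusted p = 0.813). Apoe ran from 66.8 through 97.7 to 179 CPM in WT and from 31.3 through 72.3 to 140 CPM in cKO libraries (log2 fold change -0.27, SE 0.166, unadjusted p = 0.117, edgeR adjusted p = 0.857). Both genes overlapped widely between the genotypes. The median of the 11 genes was -0.03 in set 1 alone and -0.23 in set 2 alone. It was -0.02 without cKO replicate 4 and -0.21 without cKO replicate 6, and with embryo sex in the fit it was -0.07.

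Among stem cell and radial glia genes 12 of 17 tested had a log2 fold change below 0, with a median of -0.05. Of 20 further stem cell genes 13 lay below 0, also with a median of -0.05. Fgfbp3 ran from 1.55 through 3.77 to 6.95 CPM in WT and from 1.49 through 2.59 to 4.10 CPM in cKO libraries (log2 fold change -0.58, SE 0.253, unadjusted p = 0.0322, edgeR adjusted p = 0.804). Its 3 WT libraries of set 2, at 4.31, 5.37 and 6.95 CPM, lay above the 4 cKO libraries of that set, at 4.03, 1.49, 4.10 and 3.16 CPM. Hopx lay apart within set 2 in the same way. Over all libraries Hopx ran from 2.98 through 4.12 to 6.41 CPM in WT and from 2.30 through 3.81 to 4.58 CPM in cKO (log2 fold change -0.29, SE 0.175, unadjusted p = 0.116, edgeR adjusted p = 0.857). Within set 2 the genotypes lay apart for 7.85% of all tested genes, and within set 1 for 16.2%, where Sox2, Id1 and Ptprz1 were the members that did so. No astrocyte gene lay apart in either set.

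Fabp7 ran from 5859 through 7764 to 9830 CPM in WT and from 5456 through 7423 to 9659 CPM in cKO libraries (log2 fold change -0.14, SE 0.0665, unadjusted p = 0.0538, edgeR adjusted p = 0.806). Id3 was at 0.21 (SE 0.109, unadjusted p = 0.0683, edgeR adjusted p = 0.811). Id3 ran from 74.2 through 81.9 to 114 CPM in WT and from 81.4 through 92.6 to 119 CPM in cKO libraries, largely the same range. Sox2 ran from 60.2 through 67.4 to 80.1 CPM in WT and from 52.7 through 66.8 to 81.6 CPM in cKO libraries. Its log2 fold change of 0.05 (SE 0.0748) changed sign in set 2 alone (-0.02). Pax6, Nes, Vim, Sox9 and Prom1 lay between -0.08 and 0.04.

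**Figure D3:**
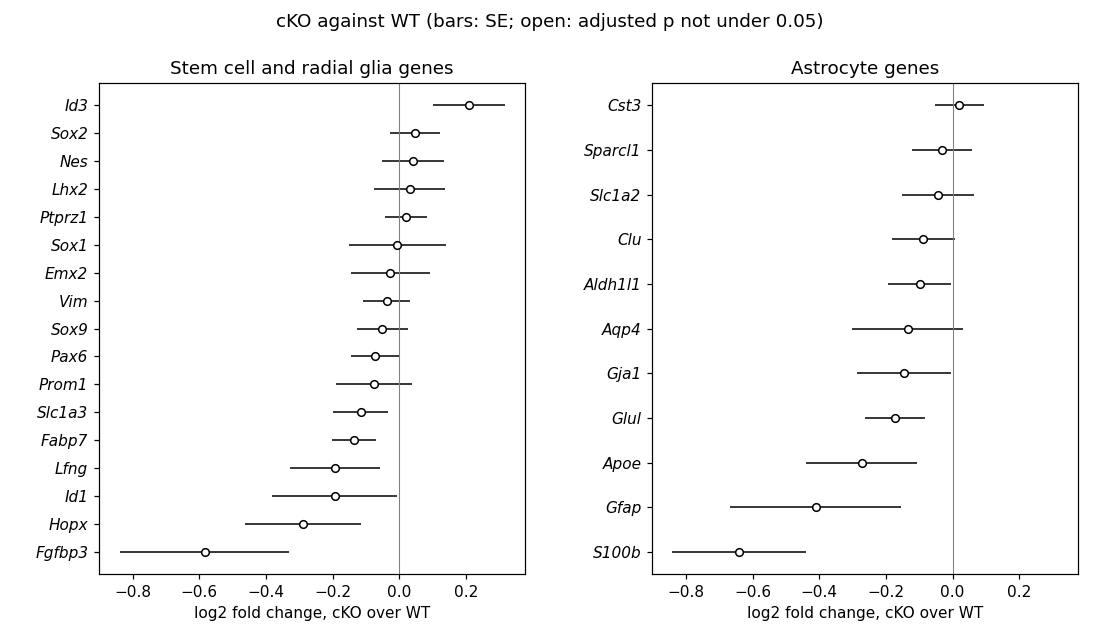
Log2 fold change of cKO over WT for each tested gene (horizontal axis), with bars of 1 SE, all points open because no adjusted p was under 0.05. The values run from S100b at -0.64 to Id3 at 0.21, and 10 of 11 astrocyte genes lie left of 0.

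Whether the genotype difference itself differed between the sets was tested as an interaction, which edgeR called for 0 of 28 tested members and 0.00% of all genes. DESeq2 and limma's voom called no member either. At an unadjusted p under 0.05 (3.54% of all genes), Prom1 was the member that passed (edgeR unadjusted p = 0.0436). Its mean was 69.3 CPM in WT and 79.6 CPM in cKO libraries of set 1, and 101 and 83.8 CPM in those of set 2.

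One library of set 2, cKO replicate 4, had the lowest total count. It was also the lowest of the 7 libraries of set 2 for 10 of 11 astrocyte genes (all but Cst3) and for 11 of 17 tested stem cell and radial glia genes, where it was lowest for 21.0% of all tested genes. Gfap was 23.2 CPM in it, against 51.1 CPM in the next lowest library, and Aqp4 was 105 CPM, against 196 CPM. On mean log2 CPM over the astrocyte list, centred within the set, it scored -0.66, and on the stem cell list -0.26. It was also the lowest of set 2 on the oligodendrocyte lineage (-0.64), BMP response (-0.57), further astrocyte (-0.45), further stem cell (-0.17) and ventral lineage (-0.24) lists. On the further stem cell list cKO replicate 5 (-0.17) was level with it at this rounding, as was WT replicate 6 (-0.24) on the ventral list. The library cKO replicate 4 was the highest on proliferation genes (0.205) and intermediate progenitor genes (0.26), and second highest on neuronal genes (0.16). The part of depth and of cell makeup in these levels was not tested. WT replicate 6 scored highest in set 2 on both member lists (0.303 for astrocyte genes and 0.179 for stem cell genes) and lowest on proliferation genes (-0.18). It was also the highest on the oligodendrocyte lineage (0.45), neuronal (0.33) and endothelium and mural cell (0.28) lists. On the further astrocyte (0.23) and further stem cell (0.15) lists WT replicate 5 was the highest. WT replicate 6 was the highest library for 3 of 11 astrocyte and 7 of 17 stem cell and radial glia genes, and for 17.6% of all tested genes.

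**Figure D4:**
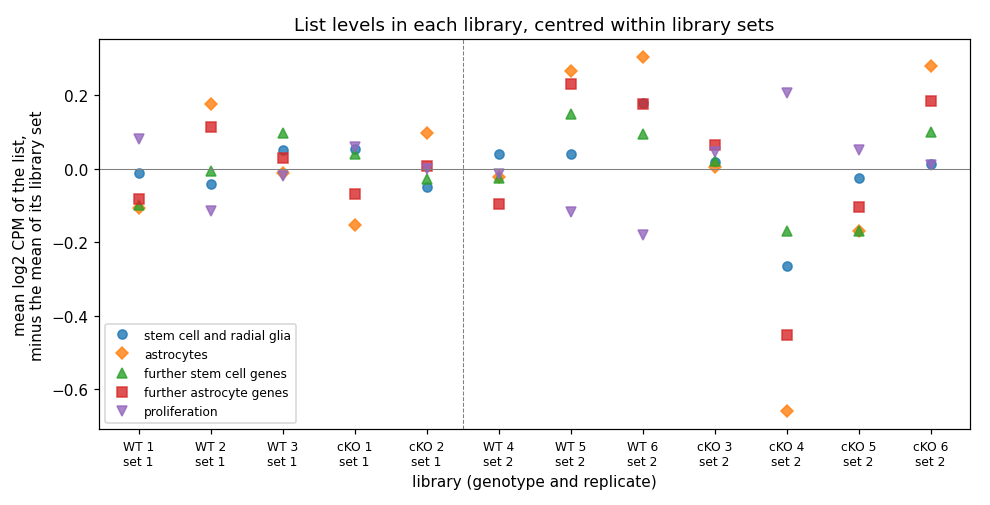
Mean log2 CPM of 5 gene lists in each library (horizontal axis, genotype and replicate), minus the mean of its library set, 1 point per list and library. In cKO replicate 4 the astrocyte list lies at -0.66 and the proliferation list at 0.205, and no other library is as far from 0 on the astrocyte list.

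HAC-seq read the transcripts of the same genes in other libraries. The authors' table lists 2251 cytidine sites in 21 of the 30 genes, kept where each WT library had read starts, and 184 sites in 15 genes had enough coverage and cleavage to test. Between cKO and WT 0 of the 184 passed (limma adjusted p of at least 0.631), beside 0.00755% of all 13240 tested sites. At an unadjusted p under 0.05 were 21 of the 184, beside 7.87% of all tested sites. Of the 184 sites 117, or 63.6%, were higher in cKO, as were 61.4% of all tested sites. No untreated library was used here, so background breakage cannot be subtracted.

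Mean cleavage over tested sites was 6.46% ± 0.533 in the 4 WT libraries and 7.61% ± 0.544 in the 3 cKO libraries for Vim (25 sites, SD over libraries), and 13.7% in both for Fabp7 (6 sites). Nes gave 7.48% ± 0.744 and 7.45% ± 1.22 over 25 sites. In 4 of the 15 members (Sox9, Lfng, Ptprz1 and Aldh1l1) every cKO library lay above every WT library, beside 7.10% of 2479 genes with tested sites. For the 2479 genes each site was given to the first gene listed for it, whereas members were matched by name and strand. None of the 15 members had every cKO library below every WT library, where 1.49% of the 2479 genes did. Aldh1l1 went from 4.83% ± 0.787 (SD, n = 4) to 7.61% ± 0.858 (SD, n = 3) over 5 sites, and Lfng from 7.07% ± 1.56 to 13.5% ± 4.55 over 3 sites. Coverage limits these values: it ran from 50 reads upward, the threshold of the test. Its median over all tested sites was 140 to 196 reads in WT libraries and 113, 113 and 148 reads in cKO replicates 1 to 3. S100b, Aqp4, Pax6, Prom1, Hopx, Fgfbp3, Emx1, Emx2 and Msi1 had no listed site. These were not only genes of low RNA-seq level: Aqp4 had a WT mean of 405 CPM, and Lfng, with 34 listed sites, of 11.6 CPM. Gja1 with 4 listed sites and Gfap with 2 had too little coverage to test.

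The site with the smallest unadjusted p among the members lies in Sox9 on chromosome 11, position 112785295 on the plus strand (GRCm38.p6). Cleavage there was 9.27%, 9.52%, 7.55% and 7.69% in WT replicates 1 to 4 and 18.0%, 16.7% and 30.7% in cKO replicates 1 to 3, at a coverage of 101 to 182 reads. The groups did not overlap, but the difference did not pass over all sites (limma adjusted p = 0.631).

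**Figure D5:**
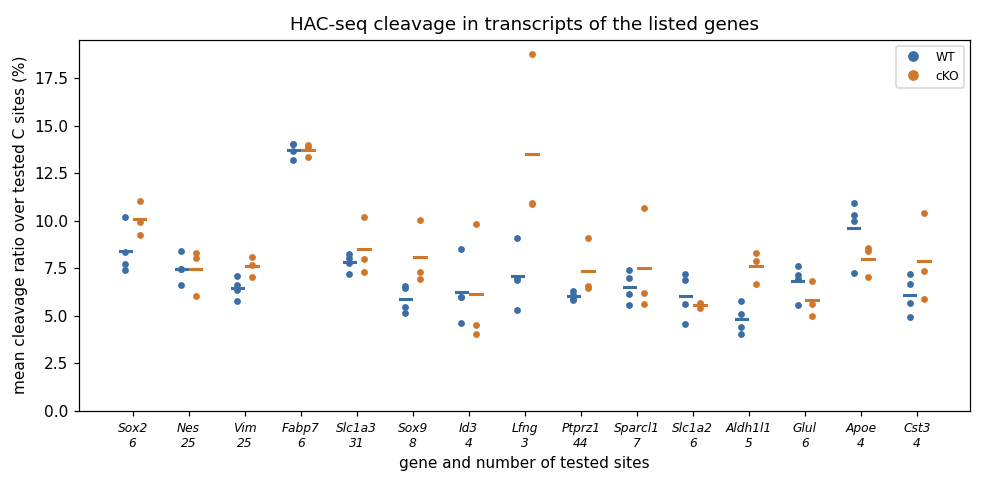
Mean cleavage ratio (percent, vertical axis) over the tested C sites of each of 15 genes in each HAC-seq library, 4 WT and 3 cKO points per gene, with lines at group means and the number of sites under each name. Fabp7 has the highest WT mean, 13.7%, and in Lfng the cKO points lie from 10.9% to 18.8%, above the WT points.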

How the data were processed

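RNA-seq libraries were made by SMART-seq2 from 300 ng of total RNA, and HAC-seq used 8000 ng, per the labels' protocols. The submitters' processing notes name STAR 2.5.2a, Trimmomatic 0.32 and bcl2fastq 2.17.1.14, and the builds GRCm38 (RNA-seq) or, for the cleavage libraries, GRCm38.p6; how the authors counted reads, and with which strand setting, is not given in the sources used here. Of the 30 genes 12 overlap another RefSeq gene, such as Sox2 with Sox2ot and Pax6 with Pax6os1, and their reads cannot be told apart without strand. The deposited RNA-seq table holds raw counts per gene, with 0 sample columns left out. The deposited HAC-seq table gives for each site and library the signal (reads that start just after the site), the count of reads over it and the fraction of the first in the second, and per the file headers keeps sites with more than 1 start in each WT library. The authors' p-value per site was not used, since its test is not named in the files.

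The RNA-seq analysis used edgeR 4.0.16 under R 4.3.3 (TMM, filterByExpr by genotype, two-sided quasi-likelihood F test, genotype and library set as terms). Of 26621 genes 6309 had no read and 13105 were tested. Levels are TMM-scaled CPM, not per length, so they do not rank genes against each other. The SE of a log2 fold change came from its F statistic, and list scores used log2 CPM with a prior count of 2. HAC-seq sites entered the test at a coverage of 50 or more in all 7 libraries and a mean ratio of 0.05 or more, and limma 3.58.1 was fitted to arcsine square roots of the ratios. The scripts were tested on simulated data. DESeq2 1.42.0 and limma's voom were alternatives, as were other scaling, no filter on low counts, counts divided by 2, left-out libraries, embryo sex and each library set or genotype alone. Promoters came from RefSeq (GRCm38.p6).

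Full statistics are given, in each list, for the 4 genes of smallest unadjusted p by genotype, the 4 of largest difference between library sets, any gene called in the interaction, Gfap and Sox2. Other members are given by range and count, with short values for some that were chosen after their values were seen. Further lists name at most 4 genes by smallest p, with Hes1 added after its value was seen. The members and lists were chosen with earlier results of these data known.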

Additional observations from a re-analysis of the deposited data

Results flagged for a closer look

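In groups of 4 or 6 libraries, 5 of 105 groups of the members (4.76%) had a library far from the others by Dixon's test at 95%. The groups overlap, and those of all WT or all cKO RNA-seq libraries pool both library sets. The share therefore cannot be set against a rate by chance. Pax6 was 101 CPM in WT replicate 2, against 74.4 to 82.7 CPM in the other WT libraries. Id3 was 114 CPM in WT replicate 1, against 74.2 to 85.4 CPM. Among the 4 cKO libraries of set 2, Sox9 was 789 CPM in cKO replicate 4, against 1028 to 1074 CPM. In the same group cKO replicate 6 was apart for Sox1, at 6.20 CPM against 8.69 to 9.12 CPM, and for Cst3, at 124 CPM against 98.9 to 103 CPM.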

How the results depend on the processing

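Of 122 counts of calls recomputed under alternatives, 118 stayed within 1.5 times of the count reported and 4 did not. With all genes that had a read kept, edgeR called 3 astrocyte genes lower in cKO (S100b, adjusted p = 5.89e-05; Gfap, 3.03e-05; Apoe, 0.0497) and 1 astrocyte gene in the interaction, and over all genes 65 of 20312 by genotype. In cKO libraries alone 6 stem cell and radial glia genes were called between the sets, not 11, and over all genes 25.0% were called there and 26.6% in WT libraries alone, where fewer libraries were tested. With a mean HAC-seq ratio of at least 0.01, 1 of 1658 member sites was called, beside 46 of all 76238 sites tested. The site lies in Slc1a2 (chromosome 2, position 102783503, plus strand). Cleavage there was 2.22% ± 0.323 (SD, n = 4) in WT and 0% in cKO (limma adjusted p = 0.0387, coverage 52 to 113). For the last site the list itself keeps sites by their WT reads.

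Leaving out 1 library gave 0 to 0 calls by genotype in either list, in the interaction and among C sites, 9 to 10 astrocyte and 8 to 11 stem cell and radial glia calls between the sets. List medians ran from -0.21 to -0.02 (astrocyte) and -0.09 to -0.02 (stem cell) by genotype, and from -0.81 to -0.69 and 0.04 to 0.13 by set. Leaving out cKO replicates 1 and 5, which read as male, was chosen after seeing the data. It gave 0 calls by genotype and 9 astrocyte and 8 stem cell calls between sets. With the replicate number as a block in place of library set, 0 members were called and the medians were -0.04 (stem cell) and -0.21 (astrocyte), and the block on HAC-seq gave 0 sites. The numbers share no stated source: same-numbered libraries correlated from -0.359 (number 3, whose libraries are in different sets) to 0.621 about genotype means, which hold the set difference, and from -0.0486 to 0.172 about means of genotype and set, and not every library correlated best with its own number. Sox2 by genotype changed sign under the block (-0.00546) and in set 2 alone (-0.0224), and Gfap by set in WT libraries alone (0.0592), none of them called in either case.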
